A study of Mus musculus with 56 samples.

Results

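The genes described here are 40 factors of ribosome biogenesis, measured in the liver of mice fed by day (daytime-restricted feeding, DRF) or by night (nighttime-restricted feeding, NRF). They were chosen by name for the step of ribosome assembly they serve, but with earlier results of these data known. All 40 were found among 25415 genes listed. Female C57BL/6J mice, 9 weeks old, had been held for 7 days with food given in the light phase (DRF) or in the dark phase (NRF), in a cycle of 12 h of light and 12 h of darkness. NRF was the reference regimen, and both regimens shared strain, sex, age and light cycle, with no genetic or drug treatment. Livers were collected every 4 h from zeitgeber time (ZT, hours after lights on) 0 to 24, which gave 7 times, 14 groups of 4 animals and 56 libraries. Each library holds RNA of 1 liver, so p-values measure the spread between animals.

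Ribosomes are assembled in the nucleolus. RNA polymerase I transcribes a long precursor that holds most of the ribosomal RNA, small nucleolar ribonucleoproteins (snoRNPs) modify and help to fold it, and separate sets of assembly factors cut it and build the small and the large subunit around it. Making ribosomes is among the costliest activities of a cell, and in liver it is known to follow the daily cycle of feeding and fasting through nutrient signalling.

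Levels are given as scaled counts, obtained by undoing a logarithm in the deposited values of each library. They hold no correction for length and are used here to compare libraries for the same gene. Differences are given on the scale of log2(scaled count + 1), which understates changes of genes with low values. Tests were made with limma over 25315 genes and called at a Benjamini-Hochberg adjusted p under 0.05. Each library held between 112.1 and 259.1 M recovered counts (M, 1000000 counts) over 24860 genes, and those of the 40 members from 101 to 41380 in a library, where 304 to 723 recovered counts make up 1 scaled count. Recovered counts are not reads, so no counting interval is given. Per kb of exon, the medians over libraries were highest for Npm1 (10.2 scaled counts per kb), Bop1 (9.99) and Polr1d (9.87), and lowest for Gnl3 (0.344).

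The library labelled NRF ZT16 replicate 3 stood apart from the others in single genes. Genes were counted that lay more than 2 log2 units from the median of the other 3 livers of their group, among genes above a log2 level of 2.5 (in the library or in that median) whose other 3 livers spanned less than 0.8 log2 units. There were 47 such genes in that library and 2 to 20 in each of the other 55. All 8 genes whose symbols start with Rrp were at their lowest of 56 libraries there, between 2.90- and 36.8-fold below the mean of the other 3 livers. Of these, Rrp1, Rrp12, Rrp1b and Rrp9 are members. Rrp12, for example, was at 19.6, 26.1, 0.668 and 28.0 scaled counts in the 4 livers of NRF ZT16. Rrp1 stood at 22.5, 26.3, 1.77 and 30.6. In all, 14 members were at their lowest or highest of 56 in that library, against at most 7 in any other. The main counts, and the single values named below as changing with it, are therefore also given without it, an alternative chosen after seeing the data.

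The tissue matched its label: the summed level of 5 hepatocyte markers was 94744 to 151645 scaled counts in every library, and none of 31 markers of 7 cell types was at 0 in any library. In bulk liver, fewer cells of a type and less RNA per cell cannot be told apart. At ZT4, where most members differed, 2 of 5 markers of sinusoidal endothelial cells were lower under DRF (summed level 338 to 363 against 401 to 435 scaled counts under NRF), as were 1 of 4 cholangiocyte and 1 of 4 lymphocyte markers. At the same time 1 of 5 hepatocyte markers was higher (summed level 104493 to 110084 against 94744 to 111951). No Kupffer cell, stellate cell or proliferating cell marker was called at ZT4; the summed level of 4 proliferation markers was 4.90 to 11.7 under DRF and 3.72 to 12.2 under NRF. At ZT16, 1 of 5 hepatocyte and 1 of 4 cholangiocyte markers were higher under DRF, and no other marker was called; without replicate 3 of NRF ZT16 the hepatocyte marker was no longer called. The part of cell composition in the results was not tested.

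Most members had their highest level at ZT4 under DRF, while under NRF no single time held the maximum of most members. Under DRF, 34 members had their highest group mean at ZT4, a time that held the highest DRF mean of 17.4% of all genes tested. The exceptions were Dkc1 and Nhp2 (ZT8), Wdr75 (ZT12), Polr1c (ZT20), Npm1 (ZT24) and Ncl (ZT0). The lowest DRF mean fell at ZT16 for 18 members, against 14.5% of all genes. Under NRF the highest mean fell at ZT16 for 14 members (16.4% of all genes) and at ZT8, ZT12 or ZT20 for 6 members each. Without replicate 3 of NRF ZT16 it fell at ZT16 for 17 members (16.5% of all genes), at ZT8 or ZT12 for 6 each and at ZT20 for 2. The maxima of Heatr1, Nop2, Nip7, Rrp12 and Rrs1 then moved to ZT16, and those of Nhp2 and Nop14 moved from ZT16 to ZT0 and ZT12. NRF means were lowest at ZT4 for 15 members (11.5% of all genes) and at ZT8 for 8 (17.1%). Without that liver the minima of Gar1 and Rrp1 moved to ZT16 and ZT20.

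**Figure D1:**
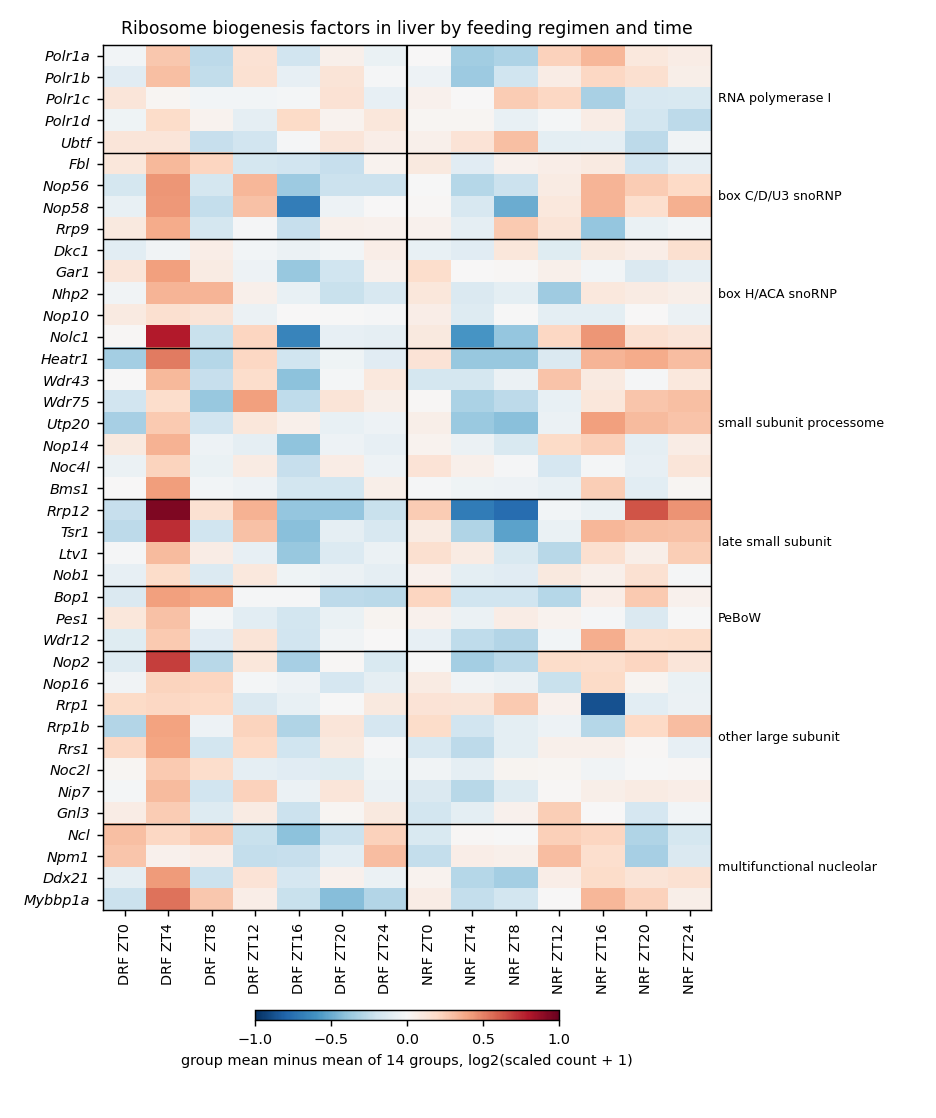
Group means of the 40 members by regimen and time (columns, 4 livers each), shown as the difference from each gene's mean over the 14 groups on the log2(scaled count + 1) scale, with genes ordered by role. The column DRF ZT4 is red for nearly all genes, DRF ZT16 is mostly blue, and the red under NRF is mostly spread over ZT12 to ZT24; the dark blue value of Rrp1 at NRF ZT16 rests on replicate 3 of that group.

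The mean over all members, taken in each liver as the deviation from each gene's own mean, separated DRF ZT4 from every other group. Its 4 livers stood at 0.362, 0.326, 0.3003 and 0.363 log2 units. No liver of any other group exceeded 0.233, so that group did not overlap with any other. At DRF ZT16 the 4 livers were at -0.155, -0.203, -0.263 and -0.215. At NRF ZT16 they were at -0.026, 0.179, -0.029 and 0.233, and at NRF ZT4 at -0.169, -0.231, -0.020 and -0.240. All 4 livers of DRF ZT16 were thus below all 4 of NRF ZT16, while the livers of NRF ZT16 spread widely among themselves.

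**Figure D2:**
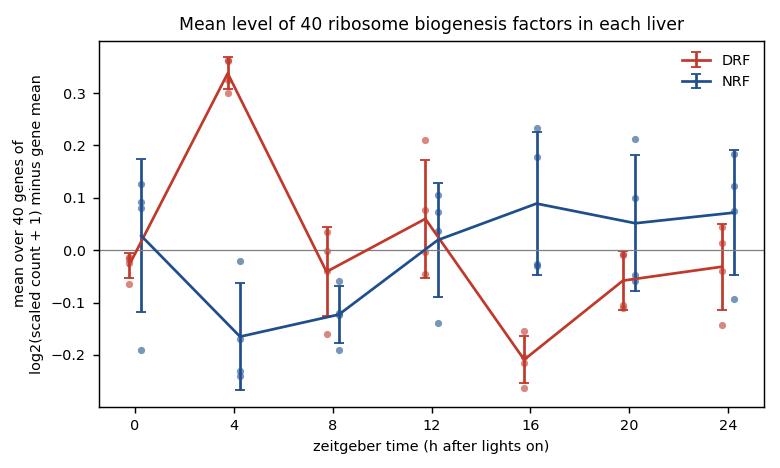
Mean over the 40 members of log2(scaled count + 1) minus the gene's mean over 56 libraries, in each liver (points), with the mean and SD of each group of 4 (lines and bars), against zeitgeber time. The 4 DRF livers of ZT4 lie between 0.3003 and 0.363, above every other liver, and the DRF livers of ZT16 lie below the NRF livers of that time.

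Rhythms were compared to ask whether these genes followed the inverted feeding time. A 24-h rhythm passed the test in 22 of 40 members under DRF, where 35% of all genes did. Under NRF it passed in 27 of 40, against 43.6% of all genes. In 15 members both tests passed (dual-oscillating genes, 23.2% of all genes), in 7 only that of DRF, in 12 only that of NRF and in 6 neither. The difference in rhythm itself between regimens passed in 31 of 40 members, against 38.8% of all genes. The 9 members without such a call were Polr1d, Rrp9, Dkc1, Nop10, Noc4l, Nob1, Rrp1, Rrp1b and Nip7. Without replicate 3 of NRF ZT16 the counts were 23, 25 and 33, in the order DRF, NRF and difference. The difference was then called for Rrp9, Rrp1b and Nip7 and no longer for Pes1. In that fit only the NRF rhythm passed for Polr1a, Polr1b, Polr1c, Heatr1, Wdr75, Utp20, Noc4l, Wdr12, Nop2, Nip7 and Ddx21. With the values as deposited, the count under DRF was 13 of 40. The shares of all genes for both alternatives are not given.

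Among the 15 dual-oscillating members, 11 were phase inverted (shifted by at least 8 h), 4 lay between 4 and 8 h and none was phase locked (up to 4 h). The median shift was 10.02 h. Of 5876 dual-oscillating genes in the whole table, 50.9% were inverted, 1440 were locked and the median shift was 8.14 h. The inverted members were Nop56, Nop58, Nhp2, Nolc1, Wdr43, Rrp12, Tsr1, Bop1, Gnl3, Npm1 and Mybbp1a. The 4 between were Rrp9 (4.08 ± 1.76 h, SE, near the bound of the locked class), Ltv1 (6.54 h), Ubtf (7.602 h) and Ncl (7.76 h). Without replicate 3 of NRF ZT16, 14 members were dual-oscillating, 8 of them inverted, with a median shift of 9.40 h. The share of all genes for that fit is not given (50.9% with all livers), so whether these 8 exceed it is not known. The classes of single members in that fit are not given either. Rrp9 and Wdr43 then lost the NRF rhythm (limma adjusted p = 0.0833 and 0.0799). Rrp1 became dual-oscillating (limma adjusted p = 0.00149 under DRF and 0.00503 under NRF). With all livers the fitted peaks of Rrp1 were only 1.43 ± 2.87 h (SE) apart. For Tsr1 the fitted peak was at 6.24 ± 0.887 h (SE) under DRF and 19.2 ± 0.617 h under NRF. Mybbp1a peaked at 7.15 ± 0.381 h and 18.0 ± 0.583 h. These peaks are a description of a fitted cosine, and the highest DRF group mean of both genes lay earlier, at ZT4.

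A full inversion at equal amplitude was tested too, by asking whether the rhythm under DRF departed from that under NRF moved by 12 h. A departure from full inversion was called in 15 of 40 members, a share close to the 34.3% of all genes. These were Polr1a, Polr1b, Ubtf, Fbl, Rrp9, Gar1, Wdr75, Utp20, Noc4l, Ltv1, Pes1, Wdr12, Rrp1, Noc2l and Ncl. Leaving out replicate 2 or 4 of every group brought the count to 7, leaving out replicate 1 to 8, and leaving out only replicate 3 of NRF ZT16 to 18. The daily mean (the rhythm-adjusted mean of the fit) differed in 0 members by limma, with 1 member at an unadjusted p under 0.05, where 6.85% of all genes were called. A 12-h component passed under DRF in 2 members, Bop1 (limma adjusted p = 0.00764) and Mybbp1a (limma adjusted p = 0.0279), against 4.72% of all genes. The count was 0 without replicate 1 or 4 and 1 without replicate 2 or 3. Under NRF it passed in 0 members (7 at an unadjusted p under 0.05), against 2.02% of all genes.

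The regimens were then compared at the same clock time. At ZT4, in the feeding phase of DRF, 29 of 40 members were higher under DRF and none was lower. Of all genes 10.8% were called higher and 9.58% lower. The median log2 difference was 0.47 over the members and -0.0032 over all genes. In 31 members the 4 DRF livers were all above the 4 NRF livers, against 11.8% of all genes. The 11 members not called were Polr1c, Polr1d, Ubtf, Dkc1, Noc4l, Ltv1, Nob1, Rrp1, Rrp1b, Ncl and Npm1. Leaving out 1 replicate number at a time gave 21 to 29 members, and 20 of the 29 were called each time. The calls lost at least once were those of Fbl, Rrp9, Gar1, Nhp2, Nop10, Nop14, Pes1, Nop16 and Gnl3.

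At ZT16, in the feeding phase of NRF, the order was turned for a smaller number of members. Of 40, 18 were lower under DRF (6.43% of all genes) and 1, Polr1c, was higher (8.76% of all genes). The median log2 difference was -0.30 over the members and -0.0003 over all genes. In 13 members all NRF livers were above all DRF livers, against 6.67% of all genes. Without replicate 3 of NRF ZT16, 16 members were lower and 0 higher: the calls of Polr1c, Bms1, Ltv1, Nop16 and Ddx21 were lost and those of Rrp12 and Polr1b gained (4.93% of all genes were lower). The 14 members called both ways then had log2 differences between -0.98 (Nolc1) and -0.42 (Ncl). In 19 members all remaining NRF livers were above all DRF livers, against 9.39% of all genes. With 1 replicate number left out at a time, 12 to 21 members were called. Heatr1, Wdr75, Utp20 and Nop2 also lost their call at least once in this way.

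**Figure D3:**
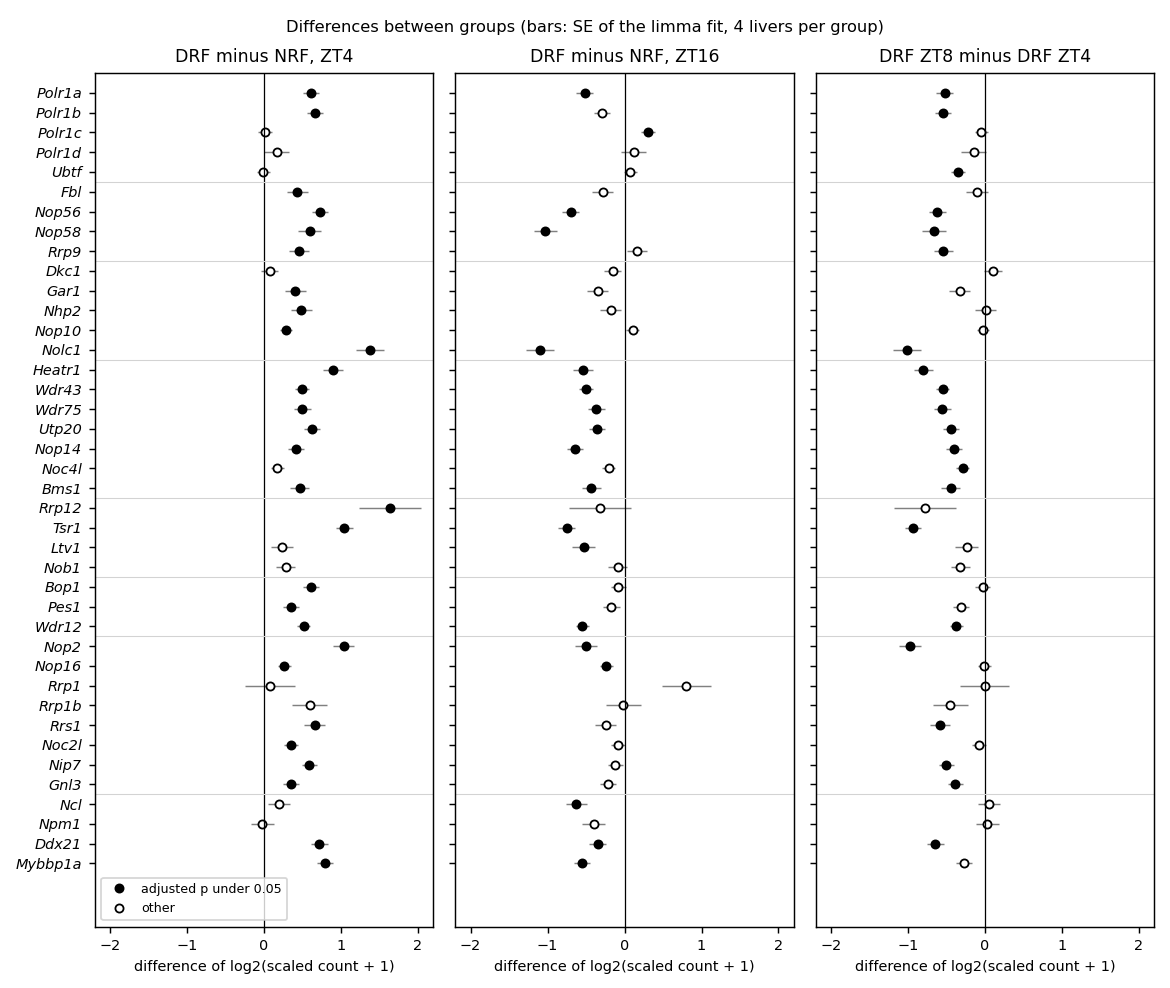
Differences of log2(scaled count + 1) for the 40 members (rows, ordered by role), with the SE of the limma fit as bars and filled points for an adjusted p under 0.05. At ZT4 the 29 filled points all lie above 0, at ZT16 18 of 19 lie below 0, and between DRF ZT4 and DRF ZT8 all 21 filled points lie below 0; the wide bars of Rrp12 and Rrp1 at ZT16, SEs of 0.40 and 0.32, were 0.19 and 0.11 without replicate 3 of NRF ZT16.

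At the other times fewer members differed, in both directions. At ZT0, 6 members were called (16% of all genes), and 10 without replicate 3 of NRF ZT16. At ZT8 there were 8 (13%), and 3 without replicate 4 of every group or 5 without replicate 1. At ZT12 there were 6 (15.2%), falling to 2 without replicate 2 and 3 without replicate 4. At ZT20 and ZT24 there were 8 each (13.8% and 14.1% of all genes), falling to 3 and 1 without replicate 2, and at ZT24 also to 3 without replicate 3 and 4 without replicate 4. Tsr1 was called at all 7 times.

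Livers at the same time after the start of the feeding phase were compared as well, which matches feeding and opposes light. In DRF ZT4 against NRF ZT16, 11 of 40 members were higher and none was lower under DRF (8.86% of all genes were higher), with a median log2 difference of 0.23. They were Polr1c, Rrp9, Gar1, Nop10, Tsr1, Bop1, Pes1, Nop2, Rrp1, Rrp1b and Noc2l. That count rests on few livers. It was 1 without replicate 1, 6 without replicate 2 or 4, and 12 without replicate 3 of NRF ZT16, when Rrp1 (limma adjusted p = 0.105), Rrp1b (limma adjusted p = 0.328), Nop10 (limma adjusted p = 0.0999) and Nop2 (limma adjusted p = 0.0665) were no longer called and 5 others, Ubtf, Wdr43, Nop14, Bms1 and Gnl3, were. With the values as deposited it was 4.

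At 8 h into feeding, DRF ZT8 against NRF ZT20, 10 members were lower under DRF (5.15% of all genes) and 2 were higher (1637 of 25315 genes). In the fasting phase, DRF ZT16 against NRF ZT4 gave 6 lower members (7.75% of all genes) and 1 higher (2417 of 25315 genes). DRF ZT20 against NRF ZT8 gave 8 higher members (7.9% of all genes). Over both directions, the first count fell from 12 to 4 without replicate 2 and 7 without replicate 4, the second from 7 to 4 without replicate 1 and 2 without replicate 2 or 4, and the last from 8 to 4 without replicate 2 and 1 without replicate 3 or 4. At the change from feeding to fasting, DRF ZT12 against the mean of NRF ZT0 and ZT24, 0 members were called by limma (8 at an unadjusted p under 0.05), where 4.71% of all genes were. At the opposite change, the mean of DRF ZT0 and ZT24 against NRF ZT12, 0 were called by limma (9 at an unadjusted p under 0.05), against 5.56%. Without replicate 2, 2 members were called in each of these comparisons, and without replicate 3, 2 in the first.

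The course within DRF was followed with contrasts between neighbouring times, chosen after seeing the data. From ZT0 to ZT4, 19 members rose and none fell (6.42% of all genes rose), and without replicate 4 the count was 11. From ZT4 to ZT8, 21 fell and none rose (4.41% of all genes fell), with 14 without replicate 2. From ZT8 to ZT12, 10 rose again (4.64% of all genes) and 2, Bop1 and Ncl, fell. Without replicate 3 of NRF ZT16, 13 members rose and 6 fell at this step, as did 1334 and 1538 of all genes. With all livers, the members that rose were Polr1a, Polr1b, Nop56, Nop58, Heatr1, Wdr43, Wdr75, Tsr1, Nip7 and Ddx21. From ZT12 to ZT16, 8 fell and none rose (1.98% of all genes fell). The counts of the last 2 steps, over both directions, fell to 2 and 5 without replicate 4, and rose to 19 and 13 without replicate 3 of NRF ZT16. Under NRF, 18 members were higher at ZT16 than at ZT4 (10.4% of all genes) and 2, Polr1c and Rrp1, were lower. Without replicate 3 of NRF ZT16, 15 were higher and 2, Polr1c and Ubtf, lower, where 2730 of all genes were higher and 3316 lower. Without replicate 4 of every group 11 members were called in all.

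ZT0 and ZT24 are the same time of day, and served as a control. Under DRF 0 members differed between them by limma (3 at an unadjusted p under 0.05), against 3.07% of all genes. Under NRF 2 differed, Wdr12 and Wdr43, against 7.81%, and none did when any replicate number was left out of every group. With the values as deposited the counts were 3 and 19, so this control depended on the scale. The shares of all genes on that scale are not given, so these counts cannot be ascribed to the members in particular.

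RNA polymerase I is a complex of many subunits. The largest, encoded by Polr1a, and the subunit of Polr1b form its catalytic centre, while the subunits of Polr1c and Polr1d are shared with RNA polymerase III and Ubtf encodes UBF, which binds the ribosomal DNA and keeps it open. Polr1a (ENSMUSG00000049553, chromosome 6, 71909053 to 71984935) stood (in scaled counts) at 40.5, 41.0, 39.3 and 41.5 at ZT4 and at 26.4, 23.2, 33.2 and 29.4 at ZT8 under DRF. Under NRF it was at 39.8, 46.6, 42.8 and 40.6 at ZT16 and 33.5, 22.5, 28.5 and 21.6 at ZT4. In each regimen the livers of both times did not overlap, and ZT4 was the highest time of one regimen and the lowest of the other. Here and for the genes below, the highest and lowest times were picked from the same values. That choice favours a lack of overlap, and the share of all genes without overlap is not given. At ZT4 the group means were 40.5 ± 0.941 (SD, n = 4) and 26.5 ± 5.57 (SD, n = 4), a 1.53-fold difference (log2 difference 0.62 ± 0.10 (SE), limma adjusted p = 1.65e-05). Polr1b followed the same course, 1.64-fold higher under DRF at ZT4 (limma adjusted p = 4.47e-06).

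Ubtf, Polr1c and Polr1d did not share this course. Ubtf (ENSMUSG00000020923, chromosome 11, 102304560 to 102319742) was at 12.8, 15.5, 14.6 and 15.6 at ZT4 and 12.2, 11.5, 10.03 and 11.2 at ZT8 under DRF. It was at 16.4, 17.7, 16.5 and 16.001 at ZT8 and 9.59, 11.5, 11.2 and 11.6 at ZT20 under NRF. The livers of ZT8 were thus the lowest under DRF and the highest under NRF, with no overlap between regimens (log2 difference -0.53 ± 0.086 (SE), limma adjusted p = 1.49e-05). Polr1c was also lower under DRF at ZT8 (log2 difference -0.28, limma adjusted p = 0.0281) and was higher at ZT16 (0.31, limma adjusted p = 0.014), a call lost without replicate 3 of NRF ZT16 (0.26 ± 0.096 (SE), limma adjusted p = 0.0751). Polr1d was called in no test.

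Box C/D snoRNPs add methyl groups to ribosomal RNA, with fibrillarin (Fbl) as the methyltransferase and the proteins of Nop56 and Nop58 as its scaffold. The related U3 particle, which holds the protein of Rrp9, guides early cuts of the precursor. All 4 members were higher under DRF at ZT4. Nop56 (ENSMUSG00000027405, chromosome 2, 130274430 to 130279313) was at 3.26, 2.95, 3.06 and 3.17 at ZT4 and 1.505, 1.24, 1.40 and 1.27 at ZT16 under DRF, and at 2.47, 3.23, 2.41 and 3.25 at ZT16 and 1.59, 1.36, 1.85 and 1.18 at ZT4 under NRF. Highest and lowest times did not overlap in either regimen and lay at opposite hours. Between regimens, Nop56 was 2.08-fold higher under DRF at ZT4 (3.11 ± 0.135 (SD, n = 4) against 1.49 ± 0.292 (SD, n = 4), log2 difference 0.73 ± 0.11 (SE), limma adjusted p = 1.43e-06). At ZT16 its log2 difference was -0.70 ± 0.11 (SE, limma adjusted p = 5.27e-06).

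Nop58 (ENSMUSG00000026020, chromosome 1, 59684971 to 59719044) was at 7.58, 6.83, 8.25 and 7.86 at ZT4 and 2.24, 3.22, 3.34 and 3.14 at ZT16 under DRF, and at 5.43, 7.28, 6.65 and 9.84 at ZT24 and 3.82, 3.44, 3.36 and 3.43 at ZT8 under NRF. Its DRF maximum and minimum were 2.56-fold apart with no overlap. The largest difference of Nop58 between regimens was that of ZT16, with 2.98 ± 0.504 (SD, n = 4) under DRF and 7.14 ± 1.30 (SD, n = 4) under NRF (log2 difference -1.03 ± 0.16 (SE), limma adjusted p = 3.91e-06). Fbl was 1.40-fold higher at ZT4 (limma adjusted p = 0.0208), and Rrp9 1.52-fold (limma adjusted p = 0.00814), and both calls were lost when single replicate numbers were left out. The NRF minimum of Rrp9 at ZT16 rests in part on replicate 3, with values of 1.73, 2.05, 0.737 and 2.64. DRF ZT4 was above NRF ZT16 by 0.76 ± 0.13 log2 units (SE) with that liver and by 0.55 ± 0.11 without it (limma adjusted p = 0.000981).

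Box H/ACA snoRNPs convert uridines of ribosomal RNA to pseudouridine. Dyskerin (Dkc1) is their enzyme, the proteins of Gar1, Nhp2 and Nop10 complete the core, and Nolc1 encodes a nucleolar chaperone of both kinds of snoRNP. Nolc1 had the widest span of this group. Nolc1 (ENSMUSG00000015176, chromosome 19, 46075863 to 46085530) was at 12.1, 11.1, 11.7 and 11.1 at ZT4 and 3.98, 4.19, 2.82 and 3.38 at ZT16 under DRF, and at 7.27, 8.37, 11.6 and 8.34 at ZT16 and 4.61, 2.59, 5.49 and 3.05 at ZT4 under NRF. No liver of the highest time overlapped with the lowest in either regimen, and under DRF the levels were 3.19-fold apart. At ZT4 it was 2.92-fold higher under DRF (11.5 ± 0.477 (SD, n = 4) against 3.94 ± 1.35 (SD, n = 4), log2 difference 1.38 ± 0.18 (SE), limma adjusted p = 8.13e-08). At ZT16 it was lower under DRF, 3.595 ± 0.619 (SD, n = 4) against 8.88 ± 1.86 (SD, n = 4) (log2 difference -1.10 ± 0.18 (SE), limma adjusted p = 1.17e-05).

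Nhp2 (ENSMUSG00000001056, chromosome 11, 51619735 to 51623714) was at 9.16, 8.16, 7.92 and 11.6 at ZT8 and 5.24, 5.36, 6.73 and 6.16 at ZT20 under DRF. Under NRF it was at 5.73, 6.81, 9.73 and 8.59 at ZT16 and 6.52, 6.79, 3.25 and 5.02 at ZT12, and there the livers of both times overlapped. The NRF maximum moved to ZT0 without replicate 3 of NRF ZT16, with a mean of 7.70 against 7.04 at ZT16. From ZT4 to ZT8 of DRF, where 21 members fell, Nhp2 differed by 0.0057 ± 0.14 log2 units (SE, limma adjusted p = 1), and it was higher under DRF at ZT4, ZT8 and ZT12 (limma adjusted p = 0.00746, 0.0225 and 0.0349). Gar1 and Nop10 were 1.66-fold and 1.26-fold higher under DRF at ZT4, calls that were lost when single replicate numbers were left out. Dkc1 was called in no test, with a log2 difference at ZT4 of 0.073 ± 0.11 (SE, limma adjusted p = 0.727).

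The small subunit processome is the large particle that forms on the nascent precursor and cuts out the RNA of the small subunit. Heatr1, Wdr43, Wdr75, Utp20, Nop14 and Noc4l encode parts of it, some of which also act in transcription by RNA polymerase I, and Bms1 encodes a GTPase. At ZT4, 6 of these 7 members were higher under DRF (all but Noc4l), and at ZT16 6 were lower, again all but Noc4l, with the call of Bms1 lost without replicate 2 or 3 of every group and without only replicate 3 of NRF ZT16. Heatr1 (ENSMUSG00000050244, chromosome 13, 12395027 to 12440289) was at 44.3, 44.7, 44.1 and 44.4 at ZT4 and 23.2, 25.0, 24.7 and 23.5 at ZT0 under DRF, and at 36.0, 48.0, 36.7 and 40.4 at ZT20 and 25.0, 23.0, 25.6 and 20.03 at ZT4 under NRF. The 4 livers of DRF ZT4 lay within less than 1 scaled count of each other and above all livers of ZT0, the time point before. The NRF maximum of Heatr1 moved to ZT16 without replicate 3 of that group, with a mean of 43.1. Heatr1 was 1.89-fold higher under DRF at ZT4 (44.4 ± 0.221 (SD, n = 4) against 23.4 ± 2.53 (SD, n = 4), log2 difference 0.90 ± 0.13 (SE), limma adjusted p = 6.13e-07).

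Utp20 (ENSMUSG00000004356, chromosome 10, 88746607 to 88826804) was at 47.3, 52.1, 50.2 and 51.1 at ZT4 and 34.0, 33.3, 32.1 and 32.5 at ZT0 under DRF, and at 55.4, 60.1, 45.1 and 64.2 at ZT16 and 32.2, 30.4, 29.4 and 32.4 at ZT8 under NRF. The highest and lowest times did not overlap in either regimen, and NRF had the larger span (1.81-fold against 1.52-fold between group means). At ZT4 Utp20 was 1.56-fold higher under DRF (log2 difference 0.63 ± 0.10, SE, limma adjusted p = 9.55e-06). Wdr75 had its DRF maximum at ZT12, with 13.1, 12.8, 16.2 and 17.2, and its minimum at ZT8, with 7.44, 6.88, 9.81 and 8.41. It rose between these times by 0.79 ± 0.11 log2 units (SE, limma adjusted p = 1.75e-05). Noc4l was higher under DRF at ZT12 (log2 difference 0.25 ± 0.087, SE, limma adjusted p = 0.0455), the only one of the 7 times at which it was called.

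Later steps of the small subunit are served by the products of Rrp12, which takes part in nuclear export, of Tsr1 and Ltv1, which keep the immature particle from translating, and of Nob1, the nuclease of the last cut. Tsr1 had the largest F of all members over the 14 groups (20.6). Tsr1 (ENSMUSG00000038335, chromosome 11, 74898071 to 74909342) was at 10.8, 10.4, 11.2 and 10.7 at ZT4 and 4.36, 4.10, 4.11 and 4.495 at ZT16 under DRF, and at 7.41, 7.95, 7.40 and 8.71 at ZT16 and 3.89, 4.56, 3.61 and 3.47 at ZT8 under NRF. In both regimens the highest and lowest times were more than 2-fold apart without overlap (2.52-fold under DRF, 2.03-fold under NRF). Between regimens Tsr1 was 2.25-fold higher under DRF at ZT4 (10.8 ± 0.363 (SD, n = 4) against 4.77 ± 0.948 (SD, n = 4), log2 difference 1.04 ± 0.11 (SE), limma adjusted p = 1.08e-09) and lower at ZT16 (log2 difference -0.75 ± 0.11, SE, limma adjusted p = 2.4e-06). Its DRF level fell by 0.94 log2 units from ZT4 to ZT8 and rose by 0.49 to ZT12. Exons of Srr overlap 32.3% of its exon bases from the other strand, and since strand use in counting is not stated, its counts may hold reads of Srr.

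Ltv1 (ENSMUSG00000019814, chromosome 10, 13178140 to 13193168) was at 13.01, 14.9, 13.2 and 13.3 at ZT4 and 8.22, 7.96, 8.43 and 7.46 at ZT16 under DRF, and at 10.4, 11.8, 15.3 and 14.6 at ZT24 and 10.4, 10.8, 5.92 and 8.19 at ZT12 under NRF. Only under DRF were these times free of overlap. At ZT4 its log2 difference of 0.24 ± 0.15 (SE) did not pass (limma adjusted p = 0.285), and at ZT16 it was lower under DRF (-0.53 ± 0.15, SE, limma adjusted p = 0.00888; -0.39 ± 0.15 and adjusted p = 0.0881 without replicate 3 of NRF ZT16). Rrp12 was at 24.7, 24.5, 24.1 and 25.2 at DRF ZT4 and at 8.97, 6.68, 7.51 and 6.11 at NRF ZT4. All DRF livers were above all NRF livers, 3.37-fold in the mean (log2 difference 1.64 ± 0.40 (SE), limma adjusted p = 0.00221). At ZT16 it was not called with all livers (-0.32 ± 0.40, SE, limma adjusted p = 0.672), and without replicate 3 of NRF ZT16 it was lower under DRF (log2 difference -1.30 ± 0.19, SE, limma adjusted p = 3.18e-06). Nob1 was called in no test, with a log2 difference at ZT4 of 0.28 ± 0.12 (SE, limma adjusted p = 0.0994).

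Pes1, Bop1 and Wdr12 encode the PeBoW complex, which is needed to process the RNA of the large subunit. All 3 were higher under DRF at ZT4. Bop1 (ENSMUSG00000022557, chromosome 15, 76452989 to 76477277) was at 41.8, 37.7, 39.1 and 45.3 at ZT4 and 23.0, 25.4, 27.5 and 25.5 at ZT20 under DRF, and at 31.9, 44.1, 34.1 and 37.8 at ZT20 and 27.5, 26.0, 22.4 and 24.05 at ZT12 under NRF. These times did not overlap in either regimen. Bop1 stayed high at DRF ZT8, with 39.5, 37.2, 44.2 and 39.6, and a log2 difference from ZT4 of -0.029 ± 0.098 (SE, limma adjusted p = 0.954). It was higher under DRF at ZT4 (0.61 ± 0.098, SE, limma adjusted p = 6.15e-06) and at ZT8 (0.58 ± 0.098, SE, limma adjusted p = 2.92e-05), and lower at ZT0, ZT20 and ZT24.

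Wdr12 (ENSMUSG00000026019, chromosome 1, 60069785 to 60098645) was at 5.67, 5.99, 5.55 and 6.20 at ZT4 and 4.08, 4.10, 3.93 and 3.95 at ZT16 under DRF, and at 6.48, 6.77, 5.59 and 6.63 at ZT16 and 3.69, 3.96, 3.32 and 3.72 at ZT8 under NRF. The livers of both times were apart in each regimen, and the NRF values of ZT16 reached as high as the DRF values of ZT4. Its log2 difference was 0.52 ± 0.084 at ZT4 (SE, limma adjusted p = 7.67e-06) and -0.55 ± 0.084 at ZT16 (SE, limma adjusted p = 4.56e-06). Pes1 was 1.29-fold higher under DRF at ZT4 (limma adjusted p = 0.0149), which was lost without replicate 4 of every group (log2 difference 0.33). It was not called at ZT16.

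Other factors of the large subunit are the methyltransferase of Nop2, the GTPase nucleostemin of Gnl3, and the assembly proteins of Nop16, Rrp1, Rrp1b, Rrs1, Noc2l and Nip7. At ZT4, 6 of the 8 members were higher under DRF, all but Rrp1 and Rrp1b. Nop2 (ENSMUSG00000038279, chromosome 6, 125131909 to 125144753) was at 23.9, 22.2, 21.4 and 22.7 at ZT4 and 11.2, 10.7, 9.58 and 11.0 at ZT16 under DRF, and at 12.9, 19.8, 14.5 and 17.0 at ZT20 and 11.1, 7.90, 14.8 and 9.35 at ZT4 under NRF. The DRF values were free of overlap, and under NRF they overlapped. At NRF ZT16 Nop2 was at 15.3, 18.1, 11.2 and 18.2, and without replicate 3 this was the NRF maximum and did not overlap with ZT4. At ZT4 Nop2 was 2.10-fold higher under DRF (22.6 ± 1.05 (SD, n = 4) against 10.8 ± 2.97 (SD, n = 4), log2 difference 1.03 ± 0.14 (SE), limma adjusted p = 2.49e-07). Between DRF ZT4 and ZT8 it fell by 0.97 ± 0.14 log2 units (SE, limma adjusted p = 3.49e-06).

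Nip7 (ENSMUSG00000031917, chromosome 8, 107056877 to 107060931) was at 3.82, 3.32, 2.96 and 3.70 at ZT4 and 2.29, 2.13, 2.08 and 2.01 at ZT8 under DRF, and at 2.52, 3.44, 2.38 and 2.86 at ZT20 and 1.81, 1.90, 2.34 and 1.77 at ZT4 under NRF. Both pairs of times were free of overlap, but the fitted 24-h amplitude under DRF was only 0.020 ± 0.053 log2 units (SE). For Nip7 too the NRF maximum moved to ZT16 without replicate 3 of that group, with a mean of 3.05. It was 1.76-fold higher under DRF at ZT4 (log2 difference 0.59 ± 0.097 (SE), limma adjusted p = 9.72e-06). Rrs1 was 1.85-fold higher at that time, Gnl3 1.40-fold, Noc2l 1.30-fold and Nop16 1.25-fold. Exons of Samd11 overlap 20.9% of the exon bases of Noc2l from the other strand. Rrp1b was at 4.48, 4.31, 2.57 and 4.53 at DRF ZT4 and 2.78, 1.61, 2.17 and 2.51 at NRF ZT4, a difference that did not pass (log2 0.60 ± 0.23, SE, limma adjusted p = 0.0562). Rrp1 and Rrp1b were called neither at a single time between regimens nor for a rhythm difference with all livers, though the rhythm of Rrp1b differed without replicate 3 of NRF ZT16 (limma adjusted p = 0.0214). For Rrp1 the log2 difference at ZT16 was 0.80 ± 0.32 with all livers and -0.022 ± 0.11 without replicate 3 of NRF ZT16 (SE, limma adjusted p = 0.0866 and 0.945).

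Nucleolin (Ncl), nucleophosmin (Npm1), the RNA helicase Ddx21 and Mybbp1a are abundant nucleolar proteins with several roles, and they split into pairs. Mybbp1a (ENSMUSG00000040463, chromosome 11, 72441355 to 72451768) was at 20.8, 17.9, 18.7 and 18.9 at ZT4 and 8.63, 9.01, 9.45 and 9.93 at ZT20 under DRF, and at 14.9, 17.3, 13.8 and 19.9 at ZT16 and 9.82, 11.2, 10.9 and 10.6 at ZT4 under NRF. Highest and lowest times were apart in both regimens, by 2.06-fold and 1.55-fold. At ZT4 Mybbp1a was 1.796-fold higher under DRF (log2 difference 0.79 ± 0.10 (SE), limma adjusted p = 1.77e-07), and at ZT8 it still was higher (0.46 ± 0.10, SE, limma adjusted p = 0.00164). Ddx21 (ENSMUSG00000020075, chromosome 10, 62580251 to 62602281) was at 39.9, 43.1, 42.9 and 42.6 at ZT4 and 27.6, 24.4, 26.9 and 27.4 at ZT8 under DRF, and at 29.5, 37.1, 37.3 and 38.0 at ZT16 and 26.8, 25.6, 20.5 and 24.6 at ZT8 under NRF. Ddx21 too was free of overlap in both regimens and was 1.66-fold higher under DRF at ZT4 (log2 difference 0.72 ± 0.11 (SE), limma adjusted p = 2.76e-06).

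Ncl and Npm1 were not called at ZT4 and had another course. Ncl was at 31.9, 29.5, 28.6 and 28.0 at DRF ZT0 and at 21.0, 20.5, 18.8 and 24.7 at NRF ZT0, with all DRF livers above. Its log2 difference was 0.46 ± 0.14 at ZT0 and 0.41 ± 0.14 at ZT24 (SE, limma adjusted p = 0.018 and 0.0446), and -0.63 ± 0.14 at ZT16 (SE, limma adjusted p = 0.00129). When replicate 3 of NRF ZT16 was left out, the last was -0.42 ± 0.13 (SE, limma adjusted p = 0.0255). Npm1 was at 32.1, 33.1, 38.9 and 32.3 at DRF ZT24 and at 22.9, 20.2, 25.3 and 30.8 at NRF ZT24. It was higher under DRF at ZT0 (0.52 ± 0.15, SE, limma adjusted p = 0.0116) and ZT24 (0.45 ± 0.15, SE, limma adjusted p = 0.0336) and lower at ZT12 (-0.54 ± 0.15, SE, limma adjusted p = 0.00853). Npm1 has near-identical copies in the genome, and counting could have split reads between them, so its values are uncertain.

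**Figure D4:**
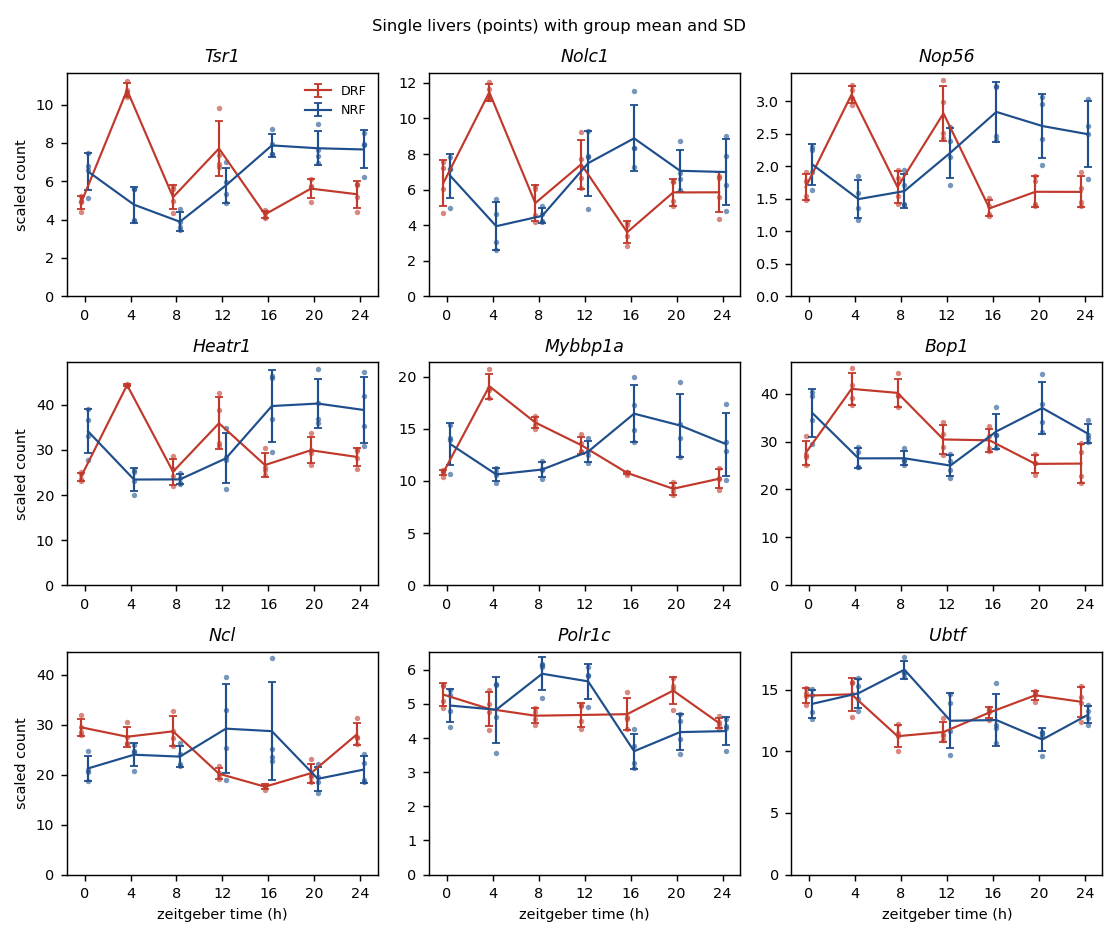
Scaled counts of 9 members in each liver (points), with the mean and SD of each group of 4 (lines and bars), against zeitgeber time; each axis starts at 0. Tsr1, Nop56 and Heatr1 peaked at DRF ZT4, fell to ZT8 and rose to ZT12, Nolc1 peaked at DRF ZT4 and fell to ZT8, Mybbp1a and Bop1 still stood high at DRF ZT8, Ncl was high at DRF ZT0 and ZT24, and Polr1c and Ubtf had their NRF maximum at ZT8.

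Further genes of the pathway were followed by lists chosen by name, which are described by counts alone. For comparison, 10.8% of all genes were higher and 9.58% lower under DRF at ZT4, and 8.76% and 6.43% at ZT16. Of 79 other biogenesis factors, 40 were higher and 2 lower under DRF at ZT4 (median log2 difference 0.25), and 4 were higher and 25 lower at ZT16 (median -0.14). Of 15 accessory genes of RNA polymerase I, 5 were higher and 1 lower at ZT4 (median 0.36), and 1 and 3 at ZT16. RNA polymerase III had 5 of 14 higher and 1 lower at ZT4 (median 0.20), and 3 and 2 at ZT16. Of 74 cytosolic ribosomal protein genes 2 were higher and 0 lower at ZT4 (median 0.14), and 7 were higher and 0 lower at ZT16 (median 0.15). Of 10 host genes of snoRNAs none was called at ZT4 or ZT16 by limma (1 and 1 at an unadjusted p under 0.05). With replicate 3 of NRF ZT16 left out, 1 of the other biogenesis factors was higher and 24 were lower at ZT16, and 0 of the ribosomal protein genes were called by limma (5 at an unadjusted p under 0.05). Of all genes 6.26% were higher and 4.93% lower in that fit. The accessory genes of RNA polymerase I then had 0 higher and 3 lower, and RNA polymerase III 3 and 1. Whether these lists differ from the 40 members was not tested. Dual-oscillating ribosomal protein genes numbered 8, all phase locked with a median shift of 1.22 h, while of 21 dual-oscillating other biogenesis factors 15 were inverted and 2 locked (median 9.29 h). An index of gene length in each library also changed over the collection times in both regimens. Under DRF its group means were -0.235 to -0.126 at ZT0 to ZT8 and 0.0433 to 0.174 at ZT12 to ZT24. Under NRF they were -0.184 to -0.0623 and 0.0417 to 0.181. The index thus differed between ZT0 and ZT24, the same time of day. Its part in the locked phases was not tested.

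Myc encodes a transcription factor known to drive many of these genes. It was at 1.18, 0.792, 0.985 and 1.09 scaled counts at DRF ZT4 and 0.388, 0.775, 0.647 and 0.948 at NRF ZT4, close to the lower end of the scale, with no call (log2 difference 0.26 ± 0.18, SE, limma adjusted p = 0.347). At ZT16 it was at 1.05, 0.419, 0.393 and 0.479 under DRF and 0.530, 1.96, 1.36 and 1.31 under NRF, and was lower under DRF (-0.51 ± 0.18, SE, limma adjusted p = 0.0459), a call lost without replicate 3 of NRF ZT16 (-0.48 ± 0.20, SE, limma adjusted p = 0.109). Of 9 genes of the MYC network, 1 was higher and 2 lower at ZT4, and 2 were higher and 1 lower at ZT16 (2 and 0 without that liver). The shares of all genes were 10.8% and 9.58% at ZT4, and 8.76% and 6.43% at ZT16. Among the listed genes that are no members, Riok2, Polr3k and Mga varied most over the 14 groups. Riok2, a kinase of late small subunit assembly, was at 37.4, 41.8, 39.9 and 37.4 at DRF ZT4 and 19.3, 17.7, 18.4 and 16.5 at NRF ZT4 (log2 difference 1.08 ± 0.074 (SE), limma adjusted p = 8.93e-15). Polr3k, a subunit of RNA polymerase III, differed by 0.018 ± 0.083 at ZT4 (SE, limma adjusted p = 0.922), and Mga, of the MYC network, by -0.29 ± 0.086 (SE, limma adjusted p = 0.0122).

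Promoters of the members were searched for 6 motifs. Of 40 members, 35 matched RefSeq promoters (GRCm38.p6), each a window of 300 bases from 250 before to 50 after a start site, read on both strands and compared with 27030 genes. The E-box CACGTG, bound by factors of the MYC and clock families, was in the windows of 7 members (20%, against 8.09% of all genes): Wdr43, Utp20, Tsr1, Ltv1, Pes1, Nop2 and Mybbp1a. In Nop2 it lay 60 bases before the start site and in the other 6 between 2 and 40 bases after it. For the 3 of them with the largest F it is shown with up to 12 bases on each side, the motif in capitals.
Tsr1, chr11:74898092-74898121, + strand: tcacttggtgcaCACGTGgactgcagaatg
Mybbp1a, chr11:72441355-72441376, + strand: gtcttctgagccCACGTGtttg
Utp20, chr10:88826765-88826789, - strand: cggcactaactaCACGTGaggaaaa
All 3 genes were higher under DRF at ZT4 and lower at ZT16, but they were picked for their F over these same groups. Of the others with the motif, Wdr43 and Nop2 had both calls, Ltv1 was not called at ZT4 and Pes1 not at ZT16. Nop56, Nolc1 and Heatr1, which had no such motif, had both calls too. The ETS motif CCGGAAGT was found in 9 members (25.7%, against 4.31%), GGGCGG of the SP family in 24 (68.6%, against 38.2%), CCAAT in 12 (34.3%, against 41.1%), TATAAA in 2 (5.71%, against 15.7%) and AAGATGGCG of YY1 in 0 (against 1.64%). These matches describe the letters in the windows and were not tested.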

How the data were processed

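Livers of 56 mice in 14 groups of 4 were profiled by strand-specific, paired-end sequencing after removal of ribosomal RNA, per the protocol text in the labels, whose molecule field says polyA RNA instead. Groups came from the labels' regimen and zeitgeber time. The labels give no batch, and animals that share a replicate number are different animals. The submitters' processing notes name CASAVA 1.8, featureCounts 1.5.0-p3 and the builds mm10 and GRCm38.p6. The aligner is not given in the sources used here, nor whether strand was used in counting.

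The authors deposited gene values named TPM that are not linear, and are taken here to be a score: value times exon length follows a logarithm of a scaled whole count. That logarithm was inverted in each library with GENCODE vM21 exon lengths, for 25315 of 25415 genes, which gave scaled counts of 327814 to 378570 in total over the 24860 genes whose counts came out whole. For 36 members the annotated exon length was used, and for Nolc1, Wdr43, Rrp12 and Rrp1b a length searched on the values. Of 24268 Ensembl identifiers 24223 matched the annotation. The design had allowed for linear TPM, and its tests were applied to scaled counts.

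Tests used limma 3.58.1 (R 4.3.3, trend) on log2(scaled count + 1), with a Benjamini-Hochberg adjusted p under 0.05 over 25315 genes and no filter on low values. All 56 libraries entered each fit, either as 14 group means or as a mean and a 24-h cosine and sine for each regimen. The depth of each library limits low genes, and the spread between animals sets the precision given. Scripts were tested on simulated data. Alternatives were median-of-ratios scaling, the values as deposited (pseudocount 0.01), pseudocounts of 0.1 and 10, only genes with a mean of at least 1, a length correction, a replicate block, an exact Kendall rank test, and leaving out a replicate number, ZT0 or ZT24. Contrasts between times within a regimen and the fit without replicate 3 of NRF ZT16 were added after seeing the data.

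Members were called by role; in each role the 2 members with the largest F over the 14 groups (13 degrees of freedom) are given by liver at their highest and lowest times, and other members by name. The members and lists were chosen with earlier results of these data known. Rcl1 is left out of the other biogenesis factors, and Mxd3, Snhg4 and Snhg7 were not analysed here.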

Additional observations from a re-analysis of the deposited data

Results flagged for a closer look

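Among 78 groups of 4 livers that were looked at, 5 held a liver farther from the others than Dixon's 95% critical value (the gap to the nearest liver as a share of the group's range), where chance gives about 1 in 20. Nop58 at NRF ZT8 had a ratio of 0.837, with replicate 1 at 3.82 scaled counts and the others between 3.36 and 3.44. Ltv1 at DRF ZT4 had a ratio of 0.874, with replicate 2 at 14.9 and the others between 13.01 and 13.3. Ddx21 at DRF ZT4 had a ratio of 0.838, with replicate 1 at 39.9 and the others between 42.6 and 43.1. Ddx21 at NRF ZT16 had a ratio of 0.896, with replicate 1 at 29.5 and the others between 37.1 and 38.0. The mean of the 40 members at NRF ZT0 had a ratio of 0.856, with replicate 1 at -0.190 log2 units and the others between 0.082 and 0.127. The cause was not tested.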

How the results depend on the processing

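No member difference called at ZT4 or ZT16 changed direction under any alternative run. The uncalled differences of Rrp1, Polr1d and Rrp9 at ZT16 turned, without replicate 3 of NRF ZT16, from 0.80, 0.12 and 0.16 to -0.022, -0.058 and -0.050. The count at ZT4 was 27 to 30 of 40 members under all settings that kept every replicate, and that at ZT16 18 to 23, with 28 and 23 after the length correction. Counts that moved by over 1.5 times were these, given without the shares of all genes. With the values as deposited, 13 members were rhythmic over 24 h under DRF, 1 differed in daily mean, 0 had a 12-h rhythm under DRF and 1 under NRF, 5 differed at ZT24, 4 between DRF ZT4 and NRF ZT16, 1 between DRF ZT12 and NRF ZT0 with ZT24, and 3 and 19 between ZT24 and ZT0 under DRF and NRF. DRF ZT12 against NRF ZT0 with ZT24 gave 1 member with median-of-ratios scaling, pseudocount 10, the minimum mean of 1 or the length correction, and 4 without ZT24. DRF ZT0 with ZT24 against NRF ZT12 gave 1 with pseudocount 10 or without ZT0, and 2 with the minimum mean of 1. That minimum also gave 2 members with a 12-h rhythm under NRF and 19 between DRF ZT12 and ZT8. A 12-h rhythm under NRF was called in 1 without ZT24. Contrasts that need ZT0 or ZT24 gave no value where that time was left out. The exact Kendall rank test called 18 members under DRF and 22 under NRF.

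Leaving out a replicate number, or replicate 3 of NRF ZT16 alone, gave 17 to 23 members with a 24-h rhythm under DRF, 19 to 25 under NRF, 26 to 33 with a rhythm difference, 7 to 18 after the 12-h shift, and 0 to 2 with a 12-h rhythm under DRF. Between regimens it gave 4 to 10 at ZT0, 21 to 30 at ZT4, 3 to 9 at ZT8, 2 to 8 at ZT12, 12 to 21 at ZT16, 3 to 9 at ZT20 and 1 to 9 at ZT24. Matched by feeding it gave 1 to 12 (DRF ZT4), 4 to 14 (ZT8), 0 to 2 (ZT12), 2 to 8 (ZT16), 1 to 10 (ZT20) and 0 to 2 (ZT0 with ZT24). Within regimens it gave 0 to 2 between ZT24 and ZT0 under NRF, 14 to 23 for DRF ZT8 minus ZT4, 2 to 19 for ZT12 minus ZT8, 5 to 13 for ZT16 minus ZT12, 11 to 21 for ZT4 minus ZT0 and 11 to 18 for NRF ZT16 minus ZT4. The median shift was 9.40 to 10.6 h. The shares of all genes for these ranges are not given, and the cause of these changes was not tested.

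Libraries with the same replicate number did not deviate together: their mean correlation was 0.0052 (-0.365 to 0.319 over 364 pairs), against -0.0017 for other numbers, and 18 of 56 libraries correlated best with their own number. The fit with the replicate number as a block gave 30 members at ZT4, 19 at ZT16 and 1 with a 12-h rhythm under NRF, where the fit without it gave 29, 19 and 0.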

Other observations

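In replicate 3 of NRF ZT16, 4 genes outside the members also had symbols starting with Rrp and were at their lowest of 56 libraries. Rrp15 was at 0.740 scaled counts there and at 5.75, 7.90 and 8.44 in the other livers of its group. Rrp7a was at 0.408, against 5.77, 7.04 and 6.96. Rrp36 was at 0.793 and Rrp8 at 0.461, against means of the others of 3.03 and 2.41. These genes were chosen after their values were seen, and no explanation was tested.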
